A study of Mus musculus with 9 samples.

Results

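The genes described are 46 genes of mitosis and chromosome segregation, out of 54532 genes counted in 3T3-L1 cells. They were chosen by name, as mitotic cyclins and kinases with the genes of the spindle checkpoint, kinetochore, condensin and cytokinesis, and all 46 names were found once in the gene tables. 3T3-L1 is a single mouse preadipocyte line that stops dividing at confluence and forms fat cells under hormones. Poly A RNA was sequenced from 3 groups with n = 3 libraries each. The Undifferentiated cells had been held at confluence for 3 days in DMEM with bovine calf serum and received no hormones. The Differentiated cells then spent 3 days in differentiation medium, which was DMEM lacking arginine and lysine, with both amino acids added back, fetal bovine serum and 4 agents, namely insulin at 10 μg/mL, rosiglitazone at 1 μM, the phosphodiesterase inhibitor 3-isobutyl-1-methylxanthine at 0.5 mM and dexamethasone at 1 μM. The Lysfree cells received the same medium with arginine but no added lysine, in which traces of lysine remained by the study's measurement. Serum and base medium thus changed together with the hormones between Undifferentiated cells and the other groups, and their parts cannot be told apart. When the Undifferentiated cells were harvested is not given in the sources used here, so time in culture may differ as well. The labels do not say whether the 3 libraries of a group came from separate cultures. The p values thus rest on the spread between these libraries, which edgeR pools over genes, and may not hold any spread between cultures.

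Entry into mitosis is driven by Cdk1 bound to A and B type cyclins, with Cdc25 phosphatases removing the inhibitory phosphates from Cdk1 and Polo and Aurora kinases acting beside it. Condensin compacts the chromosomes, kinetochores tie them to spindle microtubules, and the spindle checkpoint holds back the anaphase-promoting complex until every kinetochore is attached, after which separase opens the cohesin rings and the contractile ring divides the cell. Confluent 3T3-L1 preadipocytes are known to re-enter the cell cycle for a limited number of divisions after hormonal induction, a phase named mitotic clonal expansion.

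Counts summed to between 15880144 and 21806693 per library, and no member lay at or under the floor of 3 counts in any library, 0 of 414 values. The lowest value was 34 counts, for Ttk in Undifferentiated 3, and all 46 members passed the expression filter of edgeR. Levels are given as the deposited FPKM (fragments scaled by gene length and library total), and differences as log2 fold changes with standard errors from the quasi-likelihood test of edgeR on the counts. A gene was called at a Benjamini-Hochberg adjusted p under 0.05 and a fold change of at least 2. Lysfree 1 stood apart from the other Lysfree libraries, as its counts departed from those of Lysfree 2 and 3 by a chi-square per degree of freedom of 43.3 and 44.4, against 2.76 for Lysfree 2 with 3. By FPKM, 3 members were over 1.5-fold higher in Lysfree 1 than the mean of the other Lysfree libraries, and 0 were over 1.5-fold lower. The 3 were Nusap1 (0.79 on the log2 scale) and, near the limit, Bub1 (0.61) and Nuf2 (0.60). By CPM, of 12708 genes with a mean of at least 1 CPM, 588 (4.63%) were higher and 1492 (11.7%) lower by that much. The constant between FPKM and scaled counts was 0.953 in Lysfree 1 and 0.933 and 0.932 in Lysfree 2 and 3. Member ratios were thus slightly larger by FPKM, and these counts are not of the same measure. The counts over all members and the members it moved are therefore also given without it. Of the 46 members, 26 overlap another annotated gene, and with no strand setting given in the sources used here, reads of an overlap may belong to either gene.

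Adipocyte markers were highest in Differentiated cells. The summed level of 8 adipocyte markers ranged from 314 to 395 FPKM in Undifferentiated, from 6890 to 7245 FPKM in Differentiated and from 292 to 408 FPKM in Lysfree libraries. All 8 were called higher in Differentiated than in Undifferentiated cells and lower in Lysfree than in Differentiated cells. The near sums of Lysfree and Undifferentiated libraries hid opposite differences. Between these groups 1 of 8 was called higher in Lysfree cells, against 5.52% of all genes, and 3 lower, against 8.76%. On the log2 scale Cd36 differed by 2.18 ± 0.13, and Adipoq (-3.74 ± 0.16), Cidec (-1.56 ± 0.14) and Cebpa (-1.43 ± 0.14) were the lower ones. The 8 fibroblast and preadipocyte markers summed to between 4044 and 4386, 1021 and 1026, and 1528 and 1584 FPKM in the same groups. Markers of macrophages, endothelium and epithelium summed to at most 5.01, 0.272 and 1.72 FPKM in any library, and Adgre1, Itgam and Epcam were listed at 0 in every library. The part of these changes of cell state in the members' differences was not tested.

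Many mitosis genes are known to share 2 promoter elements, the cell cycle genes homology region (CHR), bound by the DREAM and MuvB complexes, and the CCAAT box, bound by NF-Y. RefSeq promoter windows of 300 bases, from 250 before to 50 after a transcript start (GRCm38.p6), were at hand for 38 of the 46 members. The CHR was searched as TTTGAA on both strands, so that a match on the opposite strand reads TTCAAA. The NF-Y box was searched in the same way as CCAAT, which there reads ATTGG, and a match to one element can share no more than an end letter with a match to the other. The stretches shown run from 130 bases before the start to 30 after it, 5′ to 3′ along the gene, with matches to either element in capitals. They are of Cdk1 and of the B cyclin genes Ccnb1 and Ccnb2, which differed in Lysfree cells. Next come Cdc25b, which was highest in Lysfree cells, and Cdc20 and Spc25, the highest of their roles by the mean over all 9 libraries. The last are of Top2a and of Mybl2, which had no match to either sequence searched.
Cdk1 (chr10:69352883-69353042, minus strand): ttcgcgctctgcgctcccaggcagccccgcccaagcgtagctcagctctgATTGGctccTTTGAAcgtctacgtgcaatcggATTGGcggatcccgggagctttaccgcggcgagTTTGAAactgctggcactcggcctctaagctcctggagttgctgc
Ccnb1 (chr13:100786457-100786616, minus strand): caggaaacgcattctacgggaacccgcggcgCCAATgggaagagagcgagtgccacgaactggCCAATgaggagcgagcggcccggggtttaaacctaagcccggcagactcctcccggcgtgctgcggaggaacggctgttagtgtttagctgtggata
Ccnb2 (chr9:70421525-70421684, minus strand): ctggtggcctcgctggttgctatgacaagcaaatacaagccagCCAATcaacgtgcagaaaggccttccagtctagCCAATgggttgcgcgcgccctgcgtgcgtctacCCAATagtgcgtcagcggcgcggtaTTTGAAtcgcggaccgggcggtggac
Cdc25b (chr2:131186818-131186977, plus strand): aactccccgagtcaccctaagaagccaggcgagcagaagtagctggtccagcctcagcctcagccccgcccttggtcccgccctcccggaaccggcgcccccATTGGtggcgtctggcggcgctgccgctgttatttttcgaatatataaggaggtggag
Cdc20 (chr4:118437314-118437473, minus strand): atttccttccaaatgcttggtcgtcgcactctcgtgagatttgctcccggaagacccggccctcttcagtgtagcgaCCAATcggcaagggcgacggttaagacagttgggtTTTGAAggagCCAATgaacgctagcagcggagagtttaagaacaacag
Spc25 (chr2:69206184-69206343, minus strand): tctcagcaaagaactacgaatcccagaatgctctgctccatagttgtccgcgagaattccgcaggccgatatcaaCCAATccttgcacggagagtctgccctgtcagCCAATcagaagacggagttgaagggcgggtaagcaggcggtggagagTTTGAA
Top2a (chr11:99024160-99024319, minus strand): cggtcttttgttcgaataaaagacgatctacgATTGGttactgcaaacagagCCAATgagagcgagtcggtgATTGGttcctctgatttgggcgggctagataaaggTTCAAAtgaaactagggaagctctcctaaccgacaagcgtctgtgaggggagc
Mybl2 (chr2:163054505-163054664, plus strand): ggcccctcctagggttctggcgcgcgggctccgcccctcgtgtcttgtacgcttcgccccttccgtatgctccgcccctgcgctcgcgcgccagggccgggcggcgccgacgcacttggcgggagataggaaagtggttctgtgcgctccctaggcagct
Cdk1 carried 2 CHR matches within this stretch, 1 of them beside an NF-Y box. Ccnb2 held a CHR match at its start behind 3 evenly spaced NF-Y boxes, whereas Ccnb1 had 2 NF-Y boxes and no match to TTTGAA within its whole window. Cdc25b had 1 NF-Y box and no match to TTTGAA.

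Ect2 and Prc1 had 2 overlapping windows each, and a match held by both was counted once, from the start further upstream. Across the windows, a CHR was found in 28 of 38 members (73.7%), against 20.2% of the 27025 genes with a window, and an NF-Y box in 29 of 38 (76.3%), against 41.1%. Both elements stood in 25 members (65.8%), against 7.97% of all genes. The CHR lay near the start, with 26 of 36 matches centred between 30 bases before and 50 after it, a range chosen after the positions were seen. Of 64 NF-Y boxes, 32 were centred between 90 and 10 bases before the start and 0 lay between 10 and 50 bases after it. The 10 members without a match to TTTGAA were Birc5, Bub1, Ccnb1, Cdc25b, Cenpe, Mad2l1, Mybl2, Nuf2, Nusap1 and Pttg1. Other forms of the CHR were not searched, so a window without a match may still hold one. A match is a description of letters and not of binding, and a window without one says nothing of more distant sequence.

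**Figure D1:**
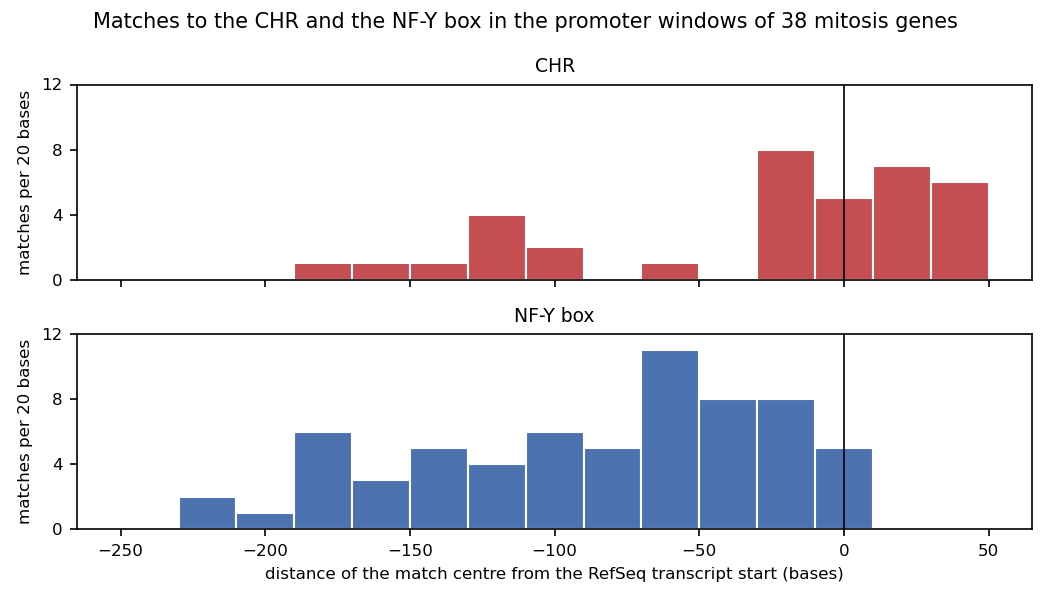
Histogram of the matches to the CHR (top) and the NF-Y box (bottom) in the promoter windows of 38 mitosis genes, with the distance of the match centre from the RefSeq transcript start in bases on the x axis and matches per 20 bases on the y axis. CHR matches gather around the start, 26 of 36 of them from 30 bases before to 50 after it, and 32 of 64 NF-Y boxes lie from 90 to 10 bases before it.

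The mitosis genes were high in Differentiated cells and near the Undifferentiated level in Lysfree cells. Their counts summed to 697, 663 and 679 CPM (counts scaled to a common library total) in the Undifferentiated libraries, to 1952, 1949 and 1990 CPM in the Differentiated libraries and to 861, 822 and 811 CPM in the Lysfree libraries. The groups did not overlap, with means of 680 ± 17.4, 1964 ± 23.1 and 831 ± 26.3 CPM (SD, n = 3). The median member was at 1.96 to 2.08 FPKM in Undifferentiated, 6.94 to 7.36 FPKM in Differentiated and 2.03 to 2.35 FPKM in Lysfree libraries. In RNA from whole cultures, a larger share of dividing cells and more RNA per dividing cell cannot be told apart.

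In Differentiated vs Undifferentiated cells, 40 of 46 members were called higher, where 10.4% of the 24402 genes tested were called higher, or 15.1% of the 14195 genes past the expression filter. None was called lower, where 11.4% of all genes were, a count of 0 in edgeR, in each alternative tool and setting, and at an unadjusted p under 0.05. The FPKM of 44 members lay above every Undifferentiated library in each Differentiated one, which held for 26.2% of all genes tested, and Cdc25b and Smc4 overlapped. The members' median difference was 1.85 on the log2 scale (3.61-fold), beside 0.02 over all genes tested. In Lysfree vs Differentiated cells, 35 of 46 were called lower, against 10.5% of the 24130 genes tested or 15.3% of those past the expression filter, and the median difference was -1.73 (3.32-fold), beside -0.06. The libraries of 44 members lay wholly below the Differentiated ones, against 25.3% of all genes tested. No member was called higher there, against 8.14% of all genes, a count of 0 in edgeR and in the alternatives with a fold threshold, and 1 member, Cdc25b, was higher at an unadjusted p under 0.05. Without Lysfree 1 the called members numbered 36, with Kif4 and Ncapg gained and Mybl2 lost, so that 6 of 7 spindle motors, 4 of 6 condensation genes and 0 of 2 transcription factors were called lower and the other roles kept their counts. The median was then -1.73, and 45 members, Smc4 included, lay wholly below the Differentiated libraries. Leaving Lysfree 1 out moved the members' log2 fold changes by between -0.33 (Nusap1) and 0.14 (Incenp).

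In Lysfree vs Undifferentiated cells the members lay close together. Only Anln was called higher and only Ccnb2 lower, so that 1 of 46 was called in each direction, against 5.52% and 8.76% of the 23994 genes tested. The median difference was 0.11 on the log2 scale, beside -0.02 over all genes. The 95% interval stayed within a 2-fold change for 34 members, while 12 were higher and 4 lower at an adjusted p under 0.05 whatever their fold change (edgeR), where the shares of all genes were 18% and 17.1%. Without overlap between the groups, 12 members were higher and 8 lower, against 20.2% and 23.2% of all genes. Without Lysfree 1 these were 12 and 10, 2 members (Anln and Mybl2) were called higher and 1 (Ccnb2) lower, and the median was 0.03. The 3 comparisons share their libraries pairwise, so their values are set side by side and are not independent.

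**Figure D2:**
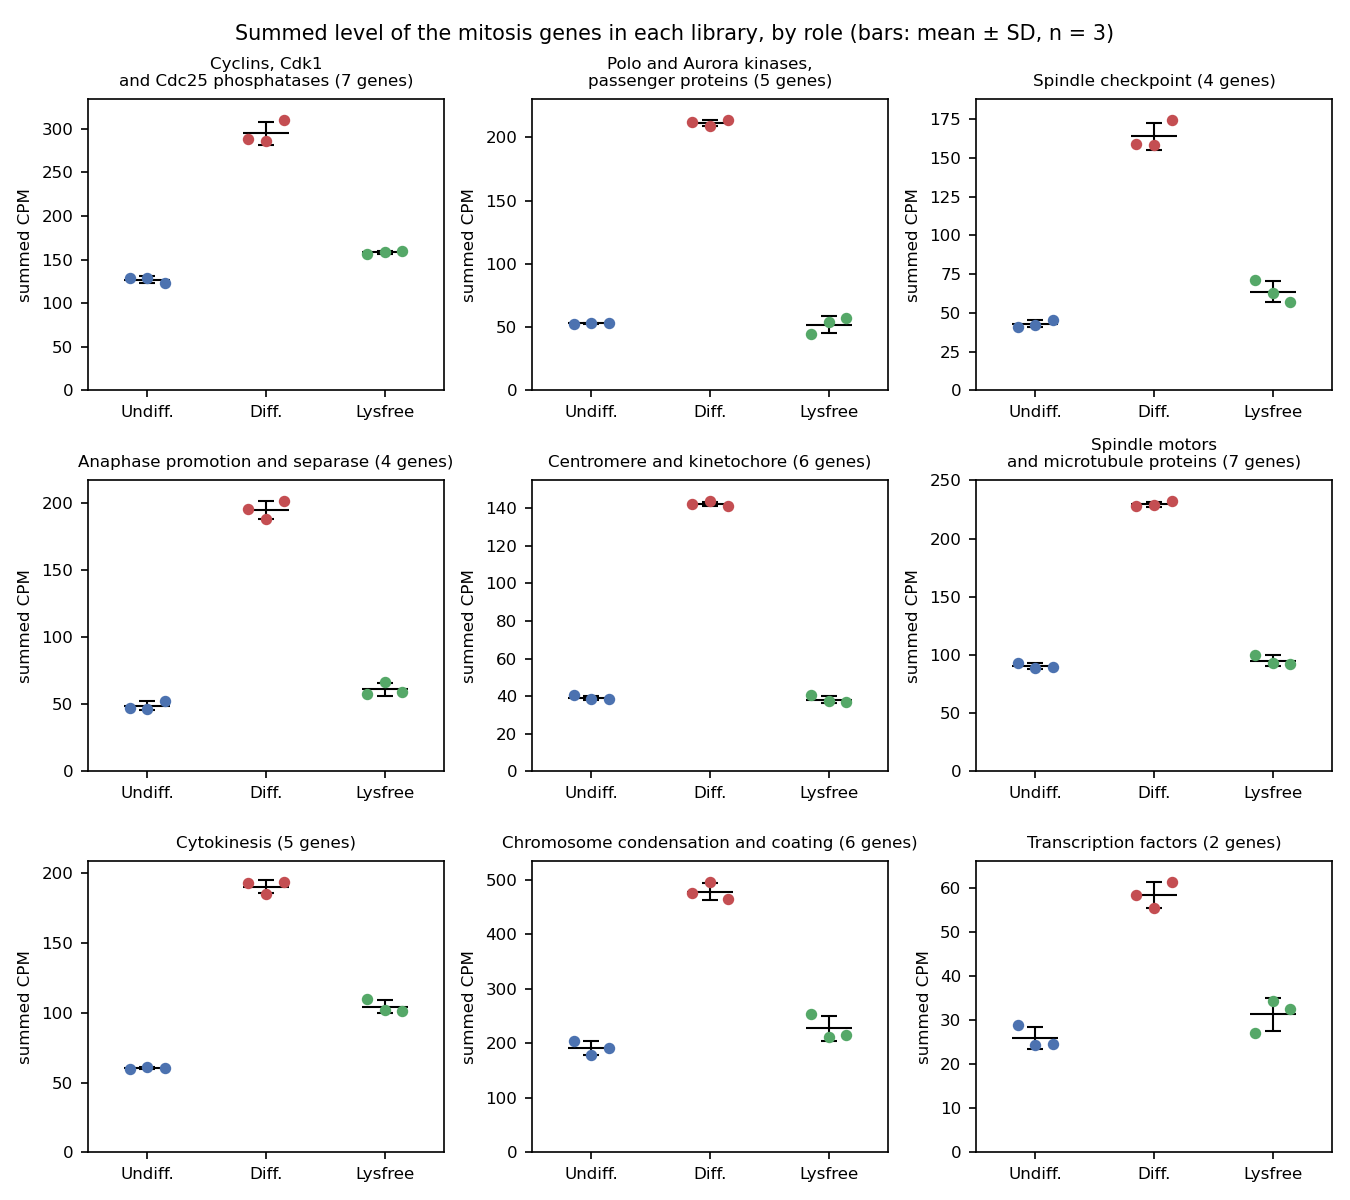
Summed CPM (y axis) of the members of each of 9 roles in each library (points, by group on the x axis), with bars for the mean ± SD over 3 libraries. Differentiated libraries were the highest in each role. Lysfree libraries lay between the other groups without overlap in 5 roles (cyclins with Cdk1 and the Cdc25 phosphatases, spindle checkpoint, anaphase promotion, cytokinesis and condensation). The first of these sums includes Cdc25b, itself highest in Lysfree libraries. By FPKM, Ccnb1 was above the Undifferentiated libraries, Cdk1 and Ccnb2 were below them, and Ccna2, Ccnf and Cdc25c overlapped them. Of the spindle checkpoint only Mad2l1 was above them, and Ttk, Bub1 and Bub1b overlapped them. Of anaphase promotion only Ube2c was above them, and Cdc20, Pttg1 and Espl1 overlapped them. Of condensation Smc2 and Ncapg were above them, Mki67 was below, and Top2a, Ncapd2 and Smc4 overlapped them. For cytokinesis the Lysfree sums were 101 to 110 against 59.4 to 60.9 CPM in Undifferentiated libraries.

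Of the cyclins, Cdk1 and its activating phosphatases, 6 of 7 were called higher in Differentiated than in Undifferentiated cells and the same 6 were called lower in Lysfree than in Differentiated cells. Ccnb1 (ENSMUSG00000041431, chromosome 13, 100778650 to 100786570, GRCm38), which encodes cyclin B1, was at 3.43, 3.39 and 3.52 FPKM in Undifferentiated, 15.7, 16.4 and 19.3 FPKM in Differentiated and 5.29, 5.96 and 5.30 FPKM in Lysfree libraries. The groups did not overlap, and Lysfree lay nearer to Undifferentiated. Its log2 fold changes were 2.29 ± 0.08 (SE, edgeR adjusted p = 2.4e-167) in Differentiated vs Undifferentiated and -1.57 ± 0.11 (2.9e-10) in Lysfree vs Differentiated. Ccnb2 (ENSMUSG00000032218, chromosome 9, 70407692 to 70421547), the gene of cyclin B2, was at 3.99, 4.85 and 3.997 FPKM, then 14.7, 14.3 and 15.5 FPKM, and in Lysfree libraries 1.38, 1.61 and 1.38 FPKM. Every Lysfree library thus stood below every Undifferentiated one, and of all members Ccnb2 fell most without lysine, by 3.28 on the log2 scale (SE 0.16, edgeR adjusted p = 6.5e-13). Spc25 came next at -3.15 ± 0.16, and these 2 did not differ beyond their errors. Against Undifferentiated cells Ccnb2 was lower by a log2 fold change of -1.51 ± 0.22 (9.7e-07), or -1.50 ± 0.22 without Lysfree 1, while Ccnb1 differed by 0.73 ± 0.14 (4.7e-05) upward.

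Cdc25b (ENSMUSG00000027330, chromosome 2, 131186949 to 131198497), a phosphatase that starts Cdk1 activation, took another course. Its level was 12.5, 12.4 and 12.8 FPKM in Undifferentiated, 12.8, 10.8 and 11.4 FPKM in Differentiated and 19.6, 19.0 and 20.1 FPKM in Lysfree libraries. The first 2 groups overlapped (log2 fold change -0.13 ± 0.07, edgeR adjusted p = 0.152), and Lysfree was above both, by 0.81 ± 0.10 (1.0e-06) and 0.69 ± 0.11 (1.9e-06) on the log2 scale, short of 2-fold. It overlaps Spef1. Its paralog Cdc25c, which acts at the entry into mitosis, had a level of 1.02, 1.69 and 1.22 FPKM, then 3.80, 4.48 and 4.94 FPKM, then 1.41, 1.13 and 1.17 FPKM. Its log2 fold changes of 1.71 ± 0.18 and -1.77 ± 0.20 were both called, and Lysfree and Undifferentiated libraries overlapped. Ccna2, for cyclin A2, was at 4.38, 4.46 and 3.59 FPKM, at 14.5, 15.0 and 15.5 FPKM and at 4.56, 3.33 and 3.94 FPKM, with a difference of -0.03 ± 0.15 between Lysfree and Undifferentiated cells. The level of Cdk1 itself was 5.52 ± 0.218, 13.2 ± 0.151 and 4.20 ± 0.437 FPKM (mean ± SD, n = 3) in the order Undifferentiated, Differentiated, Lysfree. Ccnf, whose product cyclin F is part of a ubiquitin ligase, was at 3.70 ± 0.471, 9.96 ± 0.737 and 3.47 ± 0.0187 FPKM. Of these 3 genes, Cdk1 was the one whose Lysfree libraries lay wholly below the Undifferentiated ones.

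All 5 genes of the Polo and Aurora kinases and the chromosomal passenger proteins were called higher in Differentiated cells and lower in Lysfree cells. Their median differences were 2.23 and -2.40 on the log2 scale. Aurka (ENSMUSG00000027496, chromosome 2, 172356190 to 172370535), the kinase of the spindle poles, was at 3.37, 3.78 and 2.84 FPKM in Undifferentiated, 19.5, 19.2 and 19.8 FPKM in Differentiated and 5.58, 5.84 and 5.25 FPKM in Lysfree libraries. With a log2 fold change of 2.51 ± 0.10 (edgeR adjusted p = 8.7e-149) Aurka had with Ttk (2.50 ± 0.15) the largest rise of the members in Differentiated cells, and these 2 did not differ beyond their errors. The 3 Lysfree libraries of Aurka stayed above the Undifferentiated ones, by 0.78 ± 0.16 on the log2 scale (1.8e-04). Plk1 (ENSMUSG00000030867, chromosome 7, 122159439 to 122169873), the Polo kinase of mitotic entry and exit, was at 4.06, 3.77 and 4.26 FPKM, then 20.4, 20.6 and 20.1 FPKM, then 2.67, 3.39 and 3.84 FPKM. Its differences of 2.31 ± 0.10 and -2.56 ± 0.14 were both called, and the last group overlapped the first.

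The passenger genes, unlike Aurka, did not lie above the Undifferentiated libraries in Lysfree cells. Birc5 (ENSMUSG00000017716, chromosome 11, 117849251 to 117855743), the gene of survivin, was at 1.97, 2.45 and 2.29 FPKM, then 10.9, 10.2 and 10.9 FPKM, then 1.35, 1.77 and 1.59 FPKM, with differences of 2.23 ± 0.10 and -2.70 ± 0.14. Incenp (ENSMUSG00000024660, chromosome 19, 9872297 to 9899533), the scaffold of that complex was at 6.54, 5.91 and 6.21 FPKM, then 18.1, 18.0 and 18.9 FPKM, then 3.998, 5.49 and 6.23 FPKM. Lysfree 1 was the lowest of its group for Incenp, whose difference from Differentiated cells was -1.74 ± 0.14 with it and -1.60 ± 0.08 without it. The kinase of the complex, Aurkb, had a level of 2.61 ± 0.361, 9.86 ± 0.289 and 1.78 ± 0.267 FPKM (mean ± SD, n = 3). Against Undifferentiated cells, the log2 fold changes in Lysfree cells were -0.50 ± 0.19 for Aurkb (edgeR adjusted p = 0.043), -0.46 ± 0.19 for Birc5 (0.0599) and -0.20 ± 0.15 for Incenp (0.363).

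The spindle checkpoint genes were all called higher in Differentiated cells, 4 of 4, and 3 of 4 were called lower in Lysfree cells. Ttk (ENSMUSG00000038379, chromosome 9, 83834689 to 83872389), the checkpoint kinase Mps1, was at 0.487, 0.695 and 0.432 FPKM in Undifferentiated, 3.28, 2.93 and 3.27 FPKM in Differentiated and 0.648, 0.576 and 0.566 FPKM in Lysfree libraries. Its differences were 2.50 ± 0.15 (edgeR adjusted p = 3.3e-58) and -2.34 ± 0.17 (2.1e-10) on the log2 scale. Bub1b (ENSMUSG00000040084, chromosome 2, 118598211 to 118641591), for the inhibitor BubR1, had the highest mean of the role over the 9 libraries, at 4.03, 3.88 and 4.91 FPKM, then 16.6, 16.3 and 18.4 FPKM, then 4.79, 5.16 and 4.59 FPKM. For both genes, Lysfree and Undifferentiated libraries overlapped. Mad2l1, for the checkpoint effector Mad2, differed from them. It was at 1.77 ± 0.140, 6.14 ± 0.413 and 3.37 ± 0.548 FPKM (mean ± SD, n = 3), and in Lysfree cells lay between the other groups, -0.80 ± 0.12 from Differentiated and 0.97 ± 0.14 from Undifferentiated cells on the log2 scale. Bub1, another kinase of the checkpoint, was at 2.39 FPKM in Lysfree 1 and at 1.73 and 1.40 FPKM in the others. Its log2 fold change in Lysfree vs Differentiated was -1.82 ± 0.16, or -2.06 ± 0.11 without Lysfree 1.

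Of the genes of anaphase promotion and separase, 4 of 4 were called higher in Differentiated and 4 of 4 lower in Lysfree cells. Cdc20 (ENSMUSG00000006398, chromosome 4, 118432901 to 118437352), the activator of the anaphase-promoting complex, had the highest mean level of all members over the 9 libraries. It was at 8.01, 9.08 and 10.9 FPKM in Undifferentiated, 36.6, 32.3 and 38.2 FPKM in Differentiated and 9.78, 13.4 and 10.8 FPKM in Lysfree libraries. Its differences were 1.92 ± 0.08 (edgeR adjusted p = 4.3e-121) and -1.59 ± 0.13 (1.1e-09) on the log2 scale, and it overlaps Elovl1. Pttg1, for securin, the inhibitor of separase, was at 1.78, 1.60 and 2.06 FPKM, then 5.53, 4.64 and 5.42 FPKM, then 1.65, 1.76 and 1.78 FPKM. Espl1, for separase itself, went from 1.44 ± 0.223 to 6.48 ± 0.0264 FPKM and was at 1.53 ± 0.202 FPKM in Lysfree cells. Inhibitor and protease were both highest in Differentiated cells, and both overlapped between the other groups. Ube2c, the ubiquitin-conjugating enzyme of the complex, was at 5.70 ± 0.477, 26.0 ± 0.437 and 7.50 ± 0.981 FPKM, and its Lysfree level stayed 0.44 ± 0.14 above Undifferentiated cells on the log2 scale (edgeR adjusted p = 0.0144).

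The centromere and kinetochore genes were called higher in Differentiated cells in 5 of 6 cases and lower in Lysfree cells in the same 5. Spc25 (ENSMUSG00000005233, chromosome 2, 69193895 to 69206194), a subunit of the NDC80 complex that binds microtubules, was at 1.47, 1.42 and 1.51 FPKM in Undifferentiated, 7.66, 7.12 and 7.83 FPKM in Differentiated and 0.714, 0.855 and 0.857 FPKM in Lysfree libraries. No groups overlapped, and Lysfree was the lowest. Spc25 had the highest mean of the role over the 9 libraries through the Differentiated ones alone, since in Lysfree cells Ndc80, Cenpa and Cenpe were higher. Nuf2, at 1.09, 0.670 and 0.772 FPKM in the Lysfree libraries, overlapped Spc25 and was above it in Lysfree 1 only. The differences of Spc25 were 2.34 ± 0.12 (edgeR adjusted p = 1.9e-78), -3.15 ± 0.16 (8.8e-13) and, against Undifferentiated cells, -0.81 ± 0.23 (0.00463). Ndc80 (ENSMUSG00000024056, chromosome 17, 71496100 to 71526857), for another subunit of that complex, was at 0.904, 0.906 and 0.962 FPKM, then 1.90, 1.53 and 1.48 FPKM, then 1.26, 1.15 and 1.10 FPKM. Like most members it was highest in Differentiated cells. Its differences of 0.80 ± 0.14 (edgeR adjusted p = 1.2e-07) and -0.42 ± 0.16 (0.0452) fell short of 2-fold and were not called.

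Nuf2, the partner of Ndc80 in the complex, was at 0.951 ± 0.0643, 3.88 ± 0.316 and 0.846 ± 0.222 FPKM (mean ± SD, n = 3), and its difference in Lysfree vs Differentiated cells was -2.14 ± 0.17, or -2.38 ± 0.13 without Lysfree 1. Cenpa (ENSMUSG00000029177, chromosome 5, 30666777 to 30674830), the histone H3 variant of centromeres, was at 1.43, 1.63 and 1.36 FPKM, then 6.01, 5.95 and 6.30 FPKM, then 1.10, 1.13 and 0.915 FPKM, and fell by 2.47 on the log2 scale in Lysfree vs Differentiated cells (SE 0.14). Its Lysfree libraries did not overlap the Undifferentiated ones, at a difference of -0.45 ± 0.18 (edgeR adjusted p = 0.0514). Cenpf, a large protein of the outer kinetochore and the lowest member by mean level, was at 0.429, 0.363 and 0.388 FPKM, then 1.53, 1.68 and 1.34 FPKM, then 0.350, 0.377 and 0.414 FPKM. The motor of the kinetochore, Cenpe, was at 0.870 ± 0.0720, 3.34 ± 0.217 and 0.964 ± 0.0998 FPKM.

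**Figure D3:**
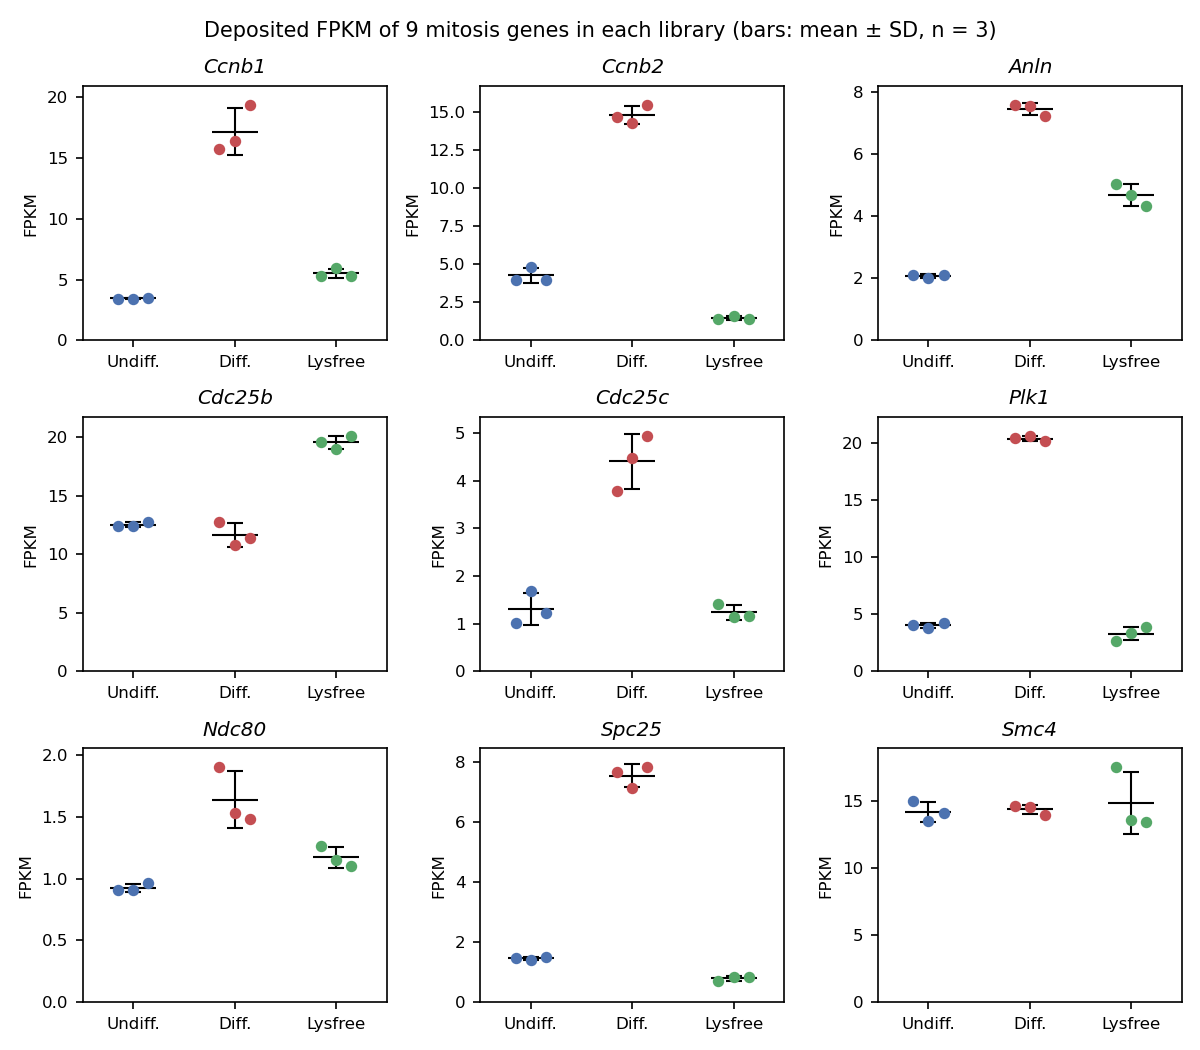
Deposited FPKM (y axis, starting at 0) of 9 members in each library (points, by group on the x axis), with bars for the mean ± SD over 3 libraries. Ccnb2 and Spc25 were lowest in Lysfree libraries, Anln lay between the other groups, Cdc25b was highest in Lysfree libraries, and the groups overlapped for Smc4.

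Of the spindle motors and microtubule proteins, 6 of 7 were called higher in Differentiated and 5 of 7 lower in Lysfree cells. Tpx2 (ENSMUSG00000027469, chromosome 2, 152847964 to 152895321), which activates Aurora A and nucleates spindle microtubules, had the highest mean of the role over the 9 libraries, at 10.5, 10.8 and 10.9 FPKM in Undifferentiated, 21.6, 20.4 and 20.4 FPKM in Differentiated and 10.4, 10.3 and 10.7 FPKM in Lysfree libraries. The Differentiated libraries stood apart, and the others overlapped. Its differences of 0.93 ± 0.07 (edgeR adjusted p = 2.0e-44) and -0.93 ± 0.09 (5.1e-08) fell short of 2-fold. Kif11, the motor that pushes the spindle poles apart, was at 1.68 ± 0.0210, 5.91 ± 0.175 and 1.75 ± 0.413 FPKM (mean ± SD, n = 3). Kif2c, which takes microtubule ends apart, was at 1.25 ± 0.0376, 5.30 ± 0.856 and 1.45 ± 0.406 FPKM. Hmmr, a spindle-associated protein, went from 1.27 ± 0.242 to 5.09 ± 0.340 FPKM and was at 0.938 ± 0.0625 FPKM in Lysfree cells. The Lysfree libraries lay wholly below the Undifferentiated ones for Hmmr and overlapped them for Kif11 and Kif2c. For Hmmr that difference was -0.40 ± 0.20 on the log2 scale (edgeR adjusted p = 0.127). Without Lysfree 1 the differences in Lysfree vs Differentiated cells were -1.89 ± 0.11 for Kif11 and -1.70 ± 0.12 for Kif2c, against -1.69 ± 0.15 and -1.80 ± 0.18 with it.

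The other genes of that role moved alike with exceptions in Lysfree cells. Kif18b, a motor acting on astral microtubules, fell by 1.89 on the log2 scale in Lysfree vs Differentiated cells (SE 0.17). Nusap1, which bundles spindle microtubules, had a difference of -1.78 ± 0.17, or -2.10 ± 0.12 without Lysfree 1. Kif4, a chromosome-bound motor, differed by -0.9997 ± 0.16, just short of 2-fold, and by -1.20 ± 0.12 and called without Lysfree 1. In Differentiated vs Undifferentiated cells the differences of these 3 were 1.59, 1.62 and 1.64 on the log2 scale.

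For cytokinesis, as for 4 of the other roles, the summed level in Lysfree cells lay between the other groups without overlap. Against Differentiated cells 3 of 5 were called lower, and their median difference was -1.08 on the log2 scale, while against Undifferentiated cells their median was 0.69. With limma on log2(FPKM + 1), Ect2 (-0.88) and Prc1 (-0.87) were no longer called lower. Anln (ENSMUSG00000036777, chromosome 9, 22332012 to 22389188), for anillin, a scaffold of the contractile ring, was at 2.11, 2.01 and 2.11 FPKM in Undifferentiated, 7.60, 7.56 and 7.24 FPKM in Differentiated and 5.05, 4.68 and 4.34 FPKM in Lysfree libraries. The 3 groups did not overlap. Its log2 fold changes were 1.82 ± 0.08 (edgeR adjusted p = 2.0e-112), -0.61 ± 0.10 (3.9e-05, not called) and, against Undifferentiated cells, 1.22 ± 0.12 (6.3e-10), or 1.14 ± 0.10 without Lysfree 1. On the log2(FPKM + 1) scale, which shrinks low values, limma put the last difference at 0.89, short of 2-fold. Ect2, which turns on RhoA at the division plane, was at 1.42 ± 0.156, 4.93 ± 0.354 and 2.22 ± 0.263 FPKM (mean ± SD, n = 3), and Prc1, which bundles the midzone, at 1.16 ± 0.0823, 4.87 ± 0.175 and 2.21 ± 0.0879 FPKM.

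Both Ect2 and Prc1 remained above Undifferentiated cells in Lysfree cells, by 0.69 ± 0.17 (edgeR adjusted p = 0.00114) and 0.97 ± 0.15 (2.0e-06) on the log2 scale. Kif20a, a midzone motor, had the highest mean of the role over the 9 libraries, although Anln was higher in Lysfree cells (4.69 ± 0.352 against 4.16 ± 0.386 FPKM). Kif20a was at 3.73, 4.48 and 4.10 FPKM, then 12.6, 12.4 and 13.3 FPKM, then 4.23, 3.74 and 4.51 FPKM, and Lysfree overlapped Undifferentiated. The difference of Kif20a in Lysfree vs Undifferentiated cells was 0.07 ± 0.15, and it overlaps Cdc23. Kif23 (ENSMUSG00000032254, chromosome 9, 61915905 to 61946774), the motor of centralspindlin, was at 1.10, 1.02 and 0.996 FPKM, then 1.82, 1.53 and 2.00 FPKM, then 1.32, 1.10 and 1.23 FPKM. The Differentiated libraries stood above the others, which overlapped. Its differences of 0.75 ± 0.13 (edgeR adjusted p = 1.2e-08) and -0.49 ± 0.15 (0.0129) fell short of 2-fold and were not called.

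Among the genes of chromosome condensation and coating, 5 of 6 were called higher in Differentiated cells and 3 of 6 lower in Lysfree cells. Smc4 (ENSMUSG00000034349, chromosome 3, 69004738 to 69034623), an ATPase core subunit of both condensins, was at 15.0, 13.6 and 14.1 FPKM in Undifferentiated, 14.6, 14.6 and 14.0 FPKM in Differentiated and 17.6, 13.6 and 13.5 FPKM in Lysfree libraries. The 3 groups overlapped, with Lysfree 1 the highest library. Its log2 fold changes were -0.01 ± 0.06 (95% interval -0.13 to 0.12, edgeR adjusted p = 0.941) and 0.11 ± 0.11 (-0.11 to 0.33, 0.474), the latter -0.04 ± 0.06 without Lysfree 1, and it overlaps Mir15b and Mir16-2. Smc2 (ENSMUSG00000028312, chromosome 4, 52439243 to 52488260), its partner in condensin, was at 3.98, 3.29 and 3.53 FPKM, then 9.03, 9.07 and 8.70 FPKM, then 7.67, 6.03 and 6.27 FPKM. Smc2 rose by 1.28 ± 0.08 on the log2 scale in Differentiated cells, and its Lysfree level was -0.36 ± 0.11 from Differentiated and 0.93 ± 0.13 from Undifferentiated cells, neither of them called.

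The other condensin subunits did not share 1 pattern in Lysfree cells. Ncapd2, of condensin I, was at 4.69 ± 0.156, 15.1 ± 0.408 and 4.74 ± 0.166 FPKM (mean ± SD, n = 3), and Lysfree overlapped Undifferentiated. Ncapg, also of condensin I, was at 1.05 ± 0.115, 3.92 ± 0.159 and 1.89 ± 0.349 FPKM. Its difference of -0.99 ± 0.14 in Lysfree vs Differentiated cells was not called and became -1.17 ± 0.10 and called without Lysfree 1. Top2a, the topoisomerase that untangles sister chromatids, was at 4.44 ± 0.255, 18.8 ± 0.403 and 4.63 ± 0.516 FPKM. Mki67, the proliferation marker that coats mitotic chromosomes, was at 1.90 ± 0.341 and 7.93 ± 0.789 FPKM and, in the Lysfree libraries, at 1.49, 1.51 and 1.49 FPKM. Its Lysfree libraries lay wholly below the Undifferentiated ones, at a difference of -0.29 ± 0.15 (edgeR adjusted p = 0.132), and those of Top2a overlapped them. Top2a and Mki67 fell by 1.95 and 2.34 on the log2 scale in Lysfree vs Differentiated cells.

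The 2 transcription factors of the list differed in size. Foxm1 (ENSMUSG00000001517, chromosome 6, 128362967 to 128376146), which turns on late cell cycle genes, was at 3.63, 3.36 and 3.36 FPKM in Undifferentiated, 6.43, 5.99 and 6.35 FPKM in Differentiated and 2.90, 3.52 and 3.13 FPKM in Lysfree libraries. Its differences of 0.83 ± 0.09 (edgeR adjusted p = 4.4e-20) and -0.91 ± 0.12 (2.1e-06) fell short of 2-fold. Mybl2, which joins the MuvB complex, was at 1.66, 1.05 and 1.08 FPKM, then 5.08, 4.89 and 5.77 FPKM, then 1.98, 2.54 and 2.66 FPKM. Lysfree lay between the other groups without overlap. Mybl2 rose by 2.01 ± 0.12 in Differentiated cells and its difference in Lysfree vs Differentiated was -1.07 ± 0.14, called, or -0.97 ± 0.11 and not called without Lysfree 1. The call was also lost with library sizes alone (-0.991), without Differentiated 3 (-0.995) and with limma on log2(FPKM + 1) (-0.885).

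**Figure D4:**
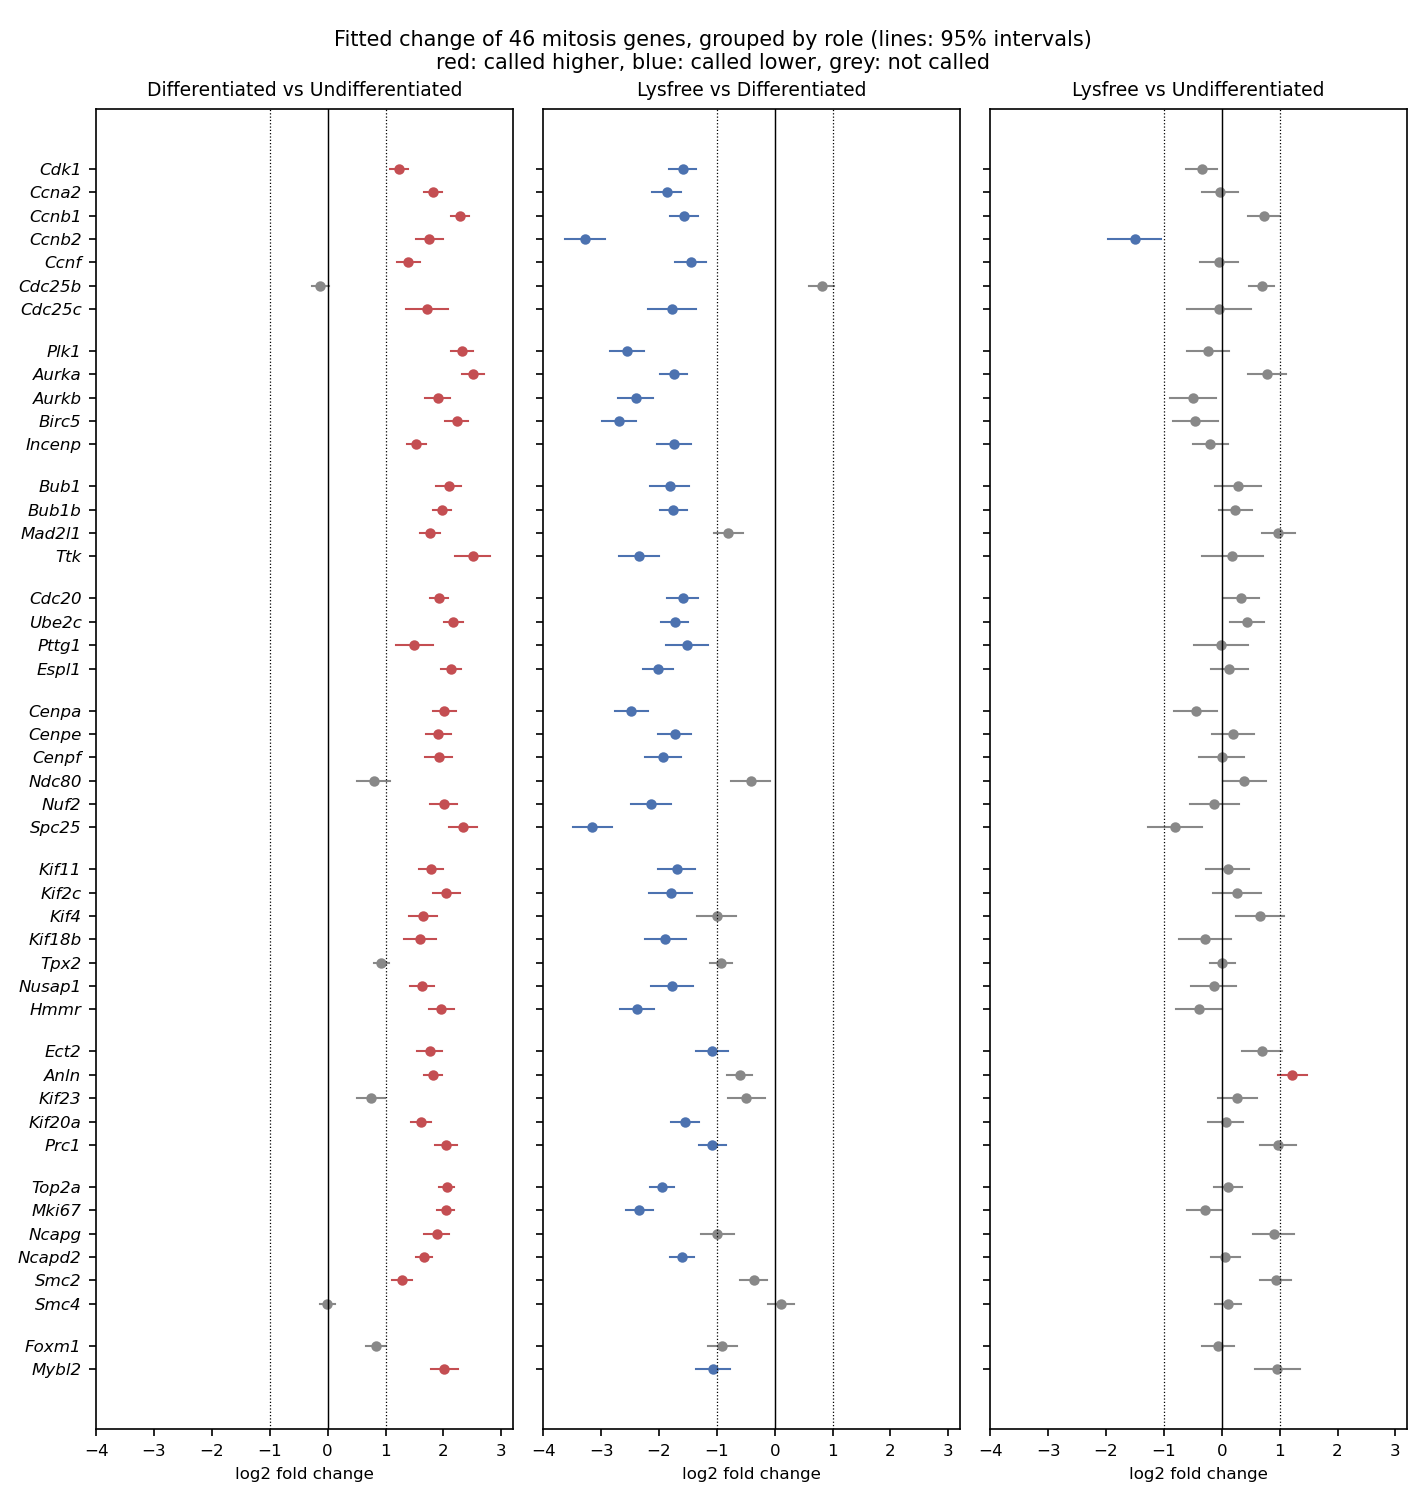
Fitted log2 fold change (x axis) of the 46 members (rows, in the order of the roles described) in the 3 comparisons, with lines for 95% intervals, dotted lines at a 2-fold change, and red, blue and grey for called higher, called lower and not called. In the left panel 40 members are red, in the middle panel 35 are blue, and in the right panel only Anln is red and only Ccnb2 blue.

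The 12 members higher in Lysfree than in Undifferentiated cells at an adjusted p under 0.05 were Anln, Mad2l1, Prc1, Mybl2, Smc2, Ncapg, Aurka, Ccnb1, Cdc25b, Ect2, Kif4 and Ube2c, and the 4 lower ones were Ccnb2, Spc25, Aurkb and Cdk1 (-0.35 ± 0.13, edgeR adjusted p = 0.0374). Of the 12, 3 are cytokinesis genes. Without Lysfree 1 these counts were 13 and 8. The number called higher with the fold threshold depended on single libraries, being 1 with all of them, 3 without Undifferentiated 1 (Smc2 and Mybl2 added), 2 without Undifferentiated 2 (Mad2l1), 2 without Undifferentiated 3 (Prc1), 2 without Lysfree 1 (Mybl2) and 2 without Lysfree 2 or Lysfree 3 (Mad2l1). Anln was called in each of these fits. The members with the smallest differences were Cenpf at -0.00039 ± 0.19, Tpx2 at 0.01 ± 0.11, Pttg1 at -0.02 ± 0.23, Ccna2 at -0.03 ± 0.15 and Cdc25c at -0.04 ± 0.27 on the log2 scale.

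The order of levels changed between the groups. In Undifferentiated cells the members with the highest FPKM were Smc4 at 14.2 ± 0.729, Cdc25b at 12.6 ± 0.182, Tpx2 at 10.7 ± 0.198 and Cdc20 at 9.32 ± 1.44 (mean ± SD, n = 3), of which Tpx2 and Cdc20 overlapped. In Differentiated cells Cdc20 led at 35.7 ± 3.05 FPKM, before Ube2c at 26.0 ± 0.437, Tpx2 at 20.8 ± 0.734 and Plk1 at 20.4 ± 0.242 FPKM, and Tpx2 and Plk1 overlapped. In Lysfree cells Cdc25b led at 19.6 ± 0.562 FPKM, followed by Smc4 at 14.9 ± 2.34, Cdc20 at 11.3 ± 1.84 and Tpx2 at 10.5 ± 0.195 FPKM, the last 2 overlapping. Smc4 and Cdc25b, the highest in Undifferentiated and Lysfree cells, were the members whose Undifferentiated and Differentiated libraries overlapped.

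Other mitosis genes that were called went mostly in the same directions. A further 117 genes of checkpoint, kinetochore, spindle, anaphase-promoting complex, condensin, cohesin and mitotic entry were compared. In Differentiated cells 58 (49.6%) were called higher and 1 (0.855%) lower, against 10.4% and 11.4% of all genes (median 0.98 on the log2 scale). In Lysfree vs Differentiated cells 45 (38.5%) were called lower and 1 (0.855%) higher, against 10.5% and 8.14% (median -0.78). In Lysfree vs Undifferentiated cells 4 (3.42%) were called higher and 3 (2.56%) lower, under the 5.52% and 8.76% of all genes (median 0.13). Haspin, the kinase that marks histone H3 for the passenger complex, was at 0.563 ± 0.122, 3.58 ± 0.556 and 0.675 ± 0.188 FPKM (mean ± SD, n = 3). Cenpm, of the constitutive centromere network, fell by 3.38 ± 0.26 on the log2 scale in Lysfree vs Differentiated cells and was called lower than in Undifferentiated cells as well (-1.07 ± 0.34). Cit, the citron kinase of cytokinesis, was called higher than in Undifferentiated cells both in Differentiated (1.56 ± 0.17) and in Lysfree cells (1.54 ± 0.20). Psrc1, a spindle regulator, was the gene called lower in Differentiated cells (-1.61 ± 0.07), and the kinase gene Nek7 the one called higher in Lysfree vs Differentiated cells (1.44 ± 0.12).

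Of 17 genes of the anaphase-promoting complex, a share called of 5.88% was below or near the 10.4% and 10.5% of all genes, as only the activator Fzr1 was called, at 1.04 ± 0.06 in Differentiated vs Undifferentiated and -1.60 ± 0.11 in Lysfree vs Differentiated cells on the log2 scale. The medians were 0.11 and -0.12. Of 17 condensin and cohesin genes, 5 were called higher and the same number lower in those comparisons, 29.4% each against 10.4% and 10.5%. They were led by Esco2 (2.24 ± 0.16), a cohesin acetyltransferase, and Cdca5 (-2.10 ± 0.21), for sororin. Of 11 DREAM and MuvB genes, whose complexes bind the CHR, Lin9 was called higher in Differentiated cells (1.82 ± 0.13) and Rbl2, for the pocket protein p130, lower (-1.02 ± 0.10). At 9.09% each way these calls were near the 10.4% and 11.4% of all genes. Rbl2 was also called lower in Lysfree than in Undifferentiated cells (-1.12 ± 0.14). In Lysfree cells Tfdp2, an E2F partner, was called lower than in Differentiated (-1.33 ± 0.16) and Undifferentiated cells (-1.47 ± 0.17), and Lin54, the CHR-binding subunit, was called higher than in Undifferentiated cells (1.12 ± 0.15).

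Genes of DNA replication and S phase, the stage before mitosis, had smaller medians than the members in both comparisons with Differentiated cells and a larger one in Lysfree vs Undifferentiated cells. Of 47 genes, 15 (31.9%) were called higher in Differentiated cells, against 10.4% of all genes, with a median of 0.63. In Lysfree vs Differentiated cells 9 (19.1%) were called lower, against 10.5% of all genes or 15.3% past the expression filter. There 2 (4.26%) were called higher, against 8.14% of all genes, and the median was -0.59. In Lysfree vs Undifferentiated cells 5 (10.6%) were called higher, against 5.52%, and 0 lower, against 8.76%, with a median of 0.20. The count of 0 stood beside 7 genes lower at an unadjusted p under 0.05 in edgeR. Tk1, thymidine kinase, was at 2.38 ± 0.621, 12.4 ± 1.18 and 1.29 ± 0.0813 FPKM (mean ± SD, n = 3). Rrm2, a subunit of ribonucleotide reductase, kept a level of 24.8 ± 1.88 FPKM in Lysfree cells, between 8.91 ± 0.826 FPKM in Undifferentiated and 47.7 ± 1.37 FPKM in Differentiated cells. The replication helicase gene Mcm2 and the chromatin assembly gene Chaf1b were higher in Lysfree cells than in both other groups, by 1.19 ± 0.09 and 1.32 ± 0.11 against Differentiated cells on the log2 scale. The difference between these lists and the 46 members was not tested.

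**Figure D5:**
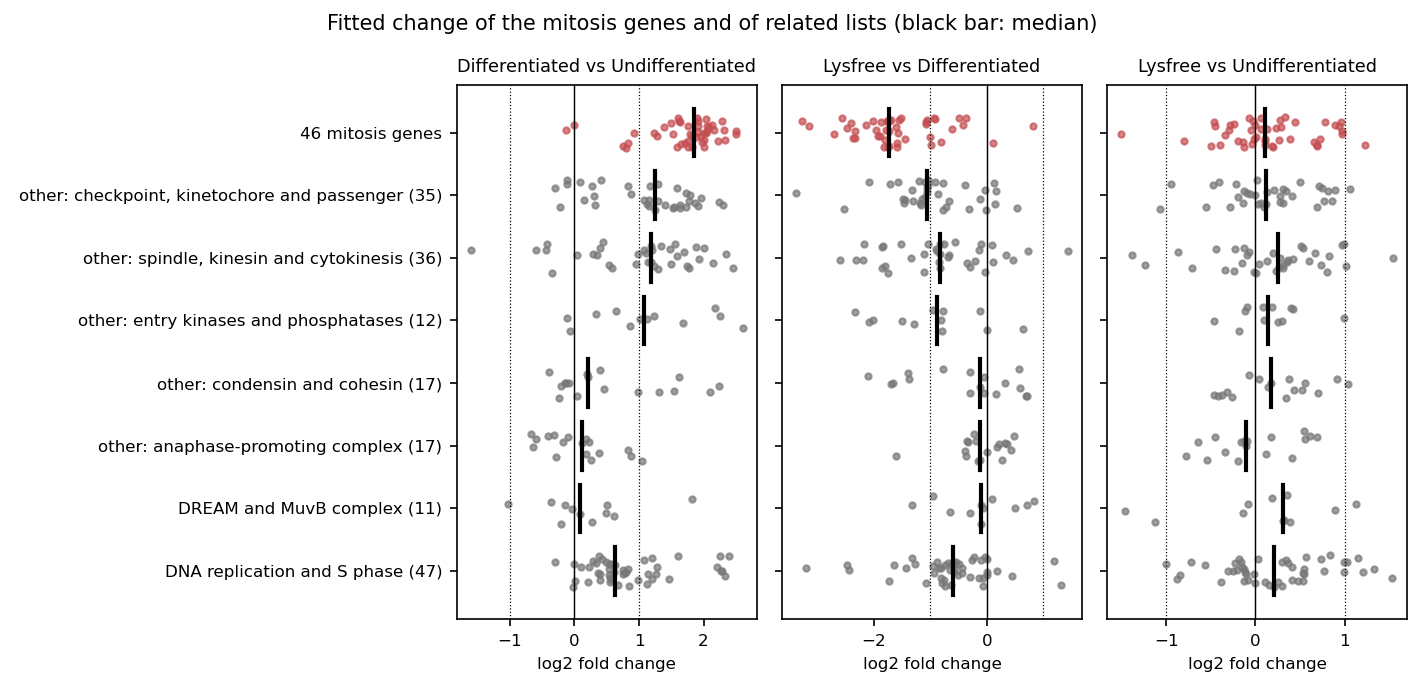
Fitted log2 fold change (x axis) of each gene (points, spread vertically at random within a row) of the 46 mitosis genes and of 7 related lists, with the number of genes in brackets, in the 3 comparisons. Black bars are medians, which for the mitosis genes were 1.85, -1.73 and 0.11, and dotted lines mark a 2-fold change.

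The members' differences were set against their promoter elements as a description. The 28 members with a match to TTTGAA had median log2 fold changes of 1.92 in Differentiated vs Undifferentiated and -1.74 in Lysfree vs Differentiated cells. In Lysfree vs Undifferentiated cells their median was 0.16. The 10 without such a match had 1.96, -1.65 and 0.24 in the same order. The 29 members with an NF-Y box had 1.92, -1.73 and 0.18, and the 9 without it 1.82, -1.52 and 0.27. Members with matches to both, such as Ccnb2 and Spc25, were thus found among those that rose in Differentiated cells. So were members with a match to neither, such as Mybl2.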

How the data were processed

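The authors mapped paired-end reads to mm10 (GRCm38) with HISAT2 and deposited raw read counts per gene. The submitters' processing notes name HISAT2 2.0.5 and featureCounts 1.5.0-p3, and the strand setting and annotation release were not given in the sources used here. The authors deposited FPKM for the same 54532 genes, which equalled count over length and total times a constant of 0.932 to 1.04 per library. Groups came from the labels. edgeR 4.0.16 in R 4.3.3 (TMM, quasi-likelihood, Benjamini-Hochberg) was fitted to each pair of groups over all genes with a count above 0, without covariates. Standard errors were derived from the F statistic. In Differentiated vs Undifferentiated cells and in the fits without Lysfree 1, the members' intervals were as wide as those of a normal distribution. The variance was then the one estimated over genes, and a gene's own spread between libraries carried no weight. It carried some weight in the 2 Lysfree comparisons with all libraries. Standard errors and p values with and without Lysfree 1 are therefore not on the same footing. DESeq2 1.42.0, limma 3.58.1 on log2(FPKM + 1) and log2(FPKM + 0.1), other scalings and filters, a replicate term and leaving out each library were alternatives. The edgeR, DESeq2, limma and replicate fits were tested on simulated data. The exact permutation test, 3 libraries against 3, has 0.1 as its smallest p and was not used. Members and gene lists were chosen with earlier results of these data known. Library values are given for the highest member of each role, the 5 largest called differences, those against the majority and up to 5 smallest not called per comparison, and of related lists up to 3 called genes with at least 1 CPM (counts over the library total). Psrc1, Nek7 and Cdk1 were named after their values were seen. Intervals cover 95%.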

Additional observations from a re-analysis of the deposited data

How the results depend on the processing

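Members called higher in Differentiated vs Undifferentiated cells ranged from 39 to 44 over 10 alternatives and were 40 in each of 6 fits without 1 library, and members called lower in Lysfree vs Differentiated cells ranged from 31 to 44, or 34 to 37 without 1 library. The call was the same under every alternative for 41, 32 and 31 of 46 members in Differentiated vs Undifferentiated, Lysfree vs Differentiated and Lysfree vs Undifferentiated, and 0 calls changed direction. On log2(FPKM + 1), which shrinks low values, limma gave median differences of 1.43, -1.39 and 0.0379, and with a mean FPKM of at least 1 it gave 1.43 and -1.41 (45 members) and 0.0379 (42 members). The last comparison then had 0 members called higher under both filters, and a median of 0.0449 on log2(FPKM + 0.1). Library sizes alone gave a median of -1.66 in Lysfree vs Differentiated cells and 3 members called higher in Lysfree vs Undifferentiated cells. With no fold threshold, 1 member was higher in Lysfree vs Differentiated cells, and 12 were higher and 4 lower in Lysfree vs Undifferentiated cells. Without 1 library, the median in Lysfree vs Differentiated cells lay between -1.73 and -1.65, the median in Lysfree vs Undifferentiated cells between 0.0255 and 0.115, and its members called higher between 2 and 3. Same-numbered libraries deviated with correlations of -0.08 to 0.12 across genes, and differently numbered ones with -0.16 to 0.11. With 3 libraries per group these values cannot decide whether the replicate numbers mark a pairing. With the replicate block 40 members were called higher in Differentiated cells, 37 lower in Lysfree vs Differentiated cells, and 1 each way in Lysfree vs Undifferentiated cells. The cause of these shifts was not tested. The lowest member count of 34 and 3 libraries per group limit the precision of low members such as Ttk and Cdc25c.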

Other observations

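Ratios of FPKM between members of shared function, chosen after their values were seen, are given without a test. Ccnb2 stood at 1.24 ± 0.163 of Ccnb1 in Undifferentiated (mean ± SD, n = 3), 0.870 ± 0.0675 in Differentiated and 0.263 ± 0.00587 in Lysfree cells, and the libraries did not overlap. Spc25 stood at 1.59 ± 0.0369, 4.66 ± 0.632 and 0.696 ± 0.114 of Ndc80, another subunit of its complex, with no overlap. In Lysfree 1 that ratio was 0.566, and in Lysfree 2 and 3 it was 0.746 and 0.777. Smc4 stood at 3.96 ± 0.177, 1.61 ± 0.00712 and 2.23 ± 0.0740 of Smc2, with which it forms the condensin core. Cdc25c stood at 0.104 ± 0.0283, 0.381 ± 0.0739 and 0.0631 ± 0.00747 of Cdc25b. The ratio of Aurka to Aurkb was 1.30 ± 0.301, 1.98 ± 0.0813 and 3.18 ± 0.610, with the Lysfree libraries at 3.28, 3.73 and 2.52. The ratio of Anln to Ect2 was 1.48 ± 0.200 and 1.52 ± 0.113, overlapping, and 2.12 ± 0.0906 in Lysfree cells.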
